A study of Mus musculus with 9 samples.

Results

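The genes described here encode dioxygenases that use 2-oxoglutarate (alpha-ketoglutarate), the TCA cycle metabolite, as a co-substrate. A list of 51 such genes was taken out of 24445 mouse genes, and each was represented by its RefSeq transcript with most reads. The list was drawn up by enzyme family, with earlier results of these data known. It holds 3 TET genes and histone demethylases sorted by main substrate, 3 for H3K36, 9 for H3K9, 3 for H3K4 and 2 for H3K27. It also holds 6 genes grouped by their JmjC fold as hydroxylases of proteins and the 4 HIF hydroxylases. A further 7 encode collagen and endoplasmic reticulum hydroxylases and 5 encode oxygenases of other substrates. The other 9, Fto and the ALKBH genes, are grouped as nucleic acid demethylases by family, not by the activity of each. The cells were bone marrow-derived macrophages of C57Bl/6 mice, in 3 groups of 3 libraries. All cells were pretreated for 1 h and then kept for 24 h in the next treatment. In Veh_N both steps were vehicle, in Veh_LPS the next treatment was lipopolysaccharide (LPS, the bacterial ligand of Toll-like receptor 4), and in D2HG_LPS the octyl ester of D-2-hydroxyglutarate was the pretreatment before LPS. The 9 libraries include no cells given the ester alone and none given another octyl ester. No label states the dose. The labels also name no separate animals or cultures for the replicates, and the p-values therefore reflect the spread between libraries, part of which may be technical.

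Each enzyme of this superfamily holds an iron atom, splits molecular oxygen, and turns 2-oxoglutarate into succinate and carbon dioxide while it hydroxylates its substrate. Hydroxylation of a methyl group makes it unstable, which is how the JmjC demethylases, FTO and several ALKBH proteins remove methyl marks from histones, RNA and DNA. The TET enzymes oxidise the methyl group of cytosine to a stable hydroxymethyl group and further, which starts the loss of DNA methylation. Hydroxylation of proline and lysine stabilises and crosslinks collagen, and hydroxylation of HIF alpha subunits by the EGLN enzymes marks them for VHL and degradation. D-2-hydroxyglutarate differs from 2-oxoglutarate by a hydroxyl in place of the keto group and competes with it in several of these enzymes. The libraries measure RNA, not enzyme activity. Macrophages carry out large chromatin and metabolic changes after LPS, and Kdm6b, Tet2 and the HIF hydroxylases are known for parts in that response.

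Levels below are counts scaled to library size (CPM) and further between libraries by TMM, a method that assumes that most genes do not change, and the 3 values of a group are given in the order of the replicate numbers. Fold changes are log2 values ± SE from edgeR's quasi-likelihood test on all 9 libraries. A gene is called where its p, adjusted by Benjamini-Hochberg over the 11622 genes with enough reads to test, is under 0.05. Of the 51 members 48 were tested. Tet1 and P4htm had too few reads, and Tmlhe had 0 counts in all 9 libraries, where 3 counts, the limit that a count of 0 allows, would be 0.218 to 0.317 CPM.

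LPS raised 16 members and lowered 21, while 11 were not called. The largest rises were those of the collagen lysyl hydroxylase Plod2, the DNA dioxygenase Tet2, the ribosomal oxygenase Riox2, the collagen prolyl hydroxylase subunit P4ha1 and the lysyl hydroxylase Plod3, each above 4-fold. The largest falls were those of the H3K36 demethylase Kdm2b, the HIF prolyl hydroxylase Egln3, the H3K4 demethylase Kdm5b and the DNA repair enzyme Alkbh2. Among all tested genes 35.0% were called higher and 38.9% lower, against 33.3% and 43.8% of the tested members, so the members' shares lie near the background. At least 2-fold higher were 7 of the 48 tested members, where 2069 (17.8%) of the 11622 tested genes were. At least 2-fold lower were 4 of the 48, where 2477 (21.3%) of all tested genes were. With TMM the share of 2-fold falls was thus lower among the members than among all genes, a difference that was not tested. It depended on scaling. With upper-quartile scaling 11 of the 48 members and 3370 of the 11622 genes were at least 2-fold lower. With library totals alone these were 19 and 4714. The members' median log2 fold change was -0.09 and that of all tested genes -0.07. The split of calls depended on scaling, and 43.2% of the members' calls were rises with TMM. Upper-quartile scaling gave 32.4% (12 higher, 25 lower) and library totals alone 22.0% (9 higher, 32 lower). Of the calls among all tested genes 47.4%, 33.2% and 21.8% were rises in these settings. The median of all genes moved from -0.07 to -0.39 and -0.74. With upper-quartile scaling 25.4% of all tested genes were higher and 51.3% lower, and with library totals alone 18.2% and 65.3%. The counts of each family below are to be read beside these shares, and were not tested against them.

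**Figure D1:**
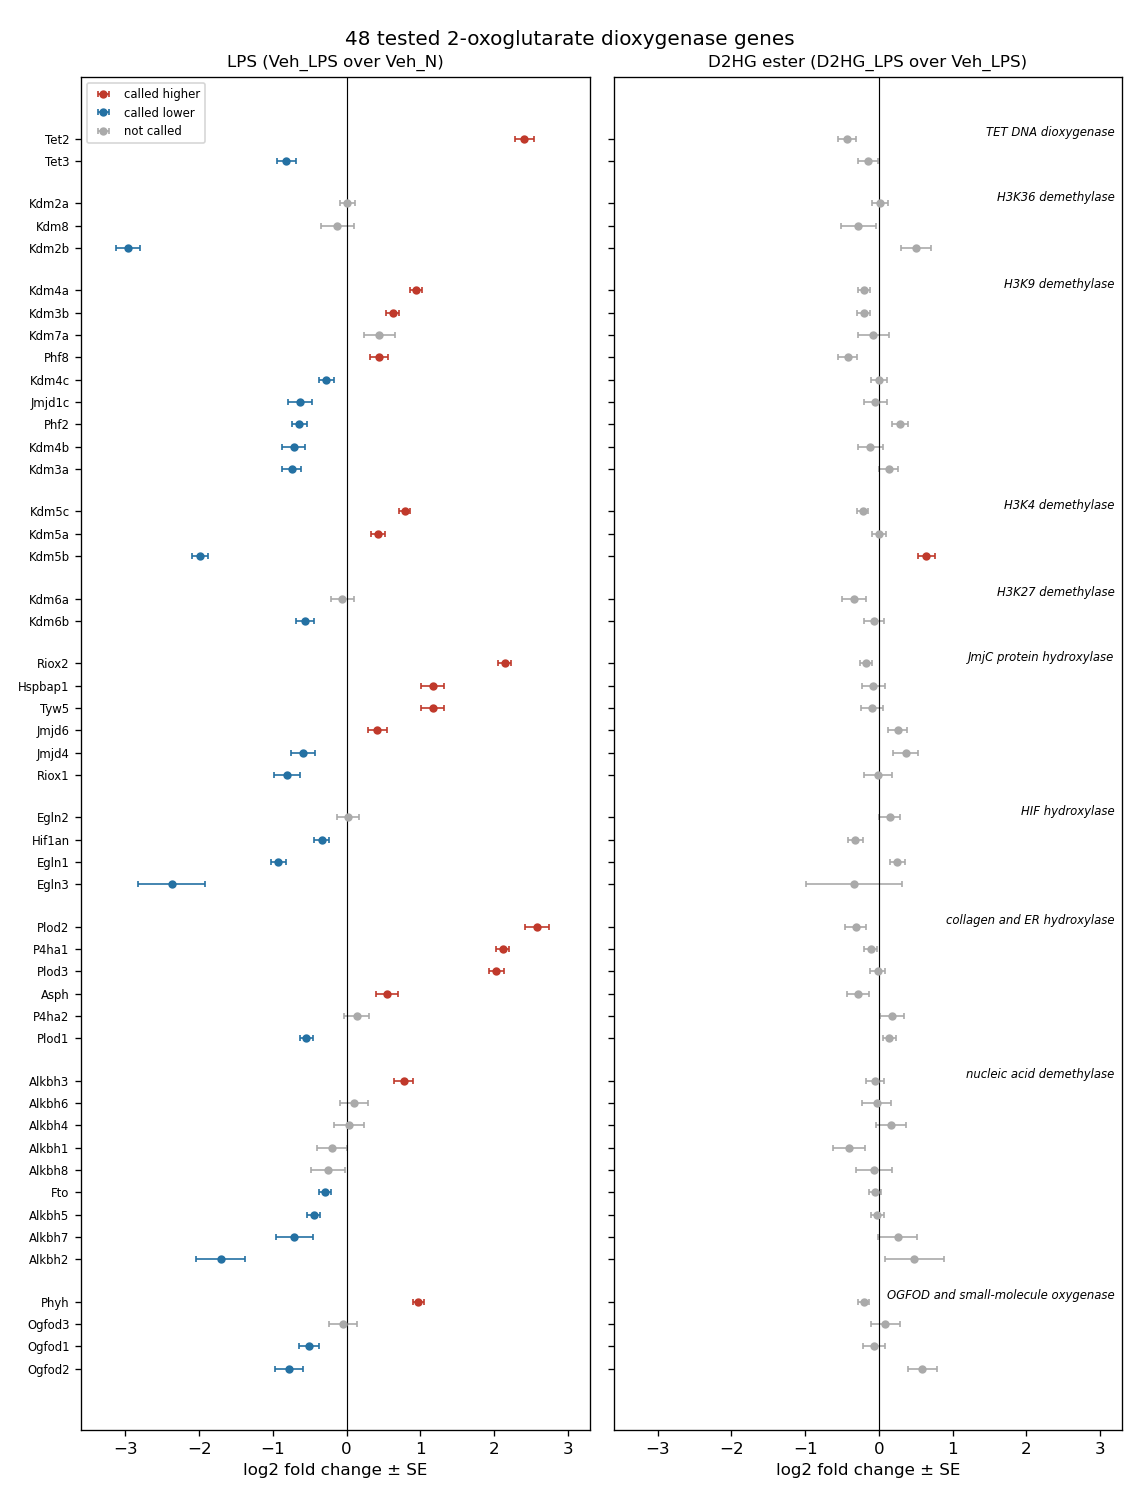
Log2 fold change (x axis, points, with SE bars) of the 48 tested members, grouped by substrate on the y axis, after LPS (left) and with the ester before LPS (right); red and blue points were called higher and lower by edgeR, grey points were not. The LPS panel spans -2.97 (Kdm2b) to 2.59 (Plod2), and in the ester panel Kdm5b (0.65) is the called point.

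The promoters shown are those of the 3 largest rises and 3 largest falls after LPS among called members whose mean log2 CPM reached 1, which leaves out Alkbh2, and that have exactly 1 RefSeq promoter window. They are shown because these members changed strongly and the HIF system, itself regulated by members, binds a short DNA core. Each run is the 250 bases before the start site in GRCm38.p6, read 5′ to 3′ in the direction of the gene. Capitals mark the core of the hypoxia response element, ACGTG or GCGTG on either strand, of which ACGTG overlaps the E-box CACGTG.
Tet2, chr3:133544391-133544640, minus strand: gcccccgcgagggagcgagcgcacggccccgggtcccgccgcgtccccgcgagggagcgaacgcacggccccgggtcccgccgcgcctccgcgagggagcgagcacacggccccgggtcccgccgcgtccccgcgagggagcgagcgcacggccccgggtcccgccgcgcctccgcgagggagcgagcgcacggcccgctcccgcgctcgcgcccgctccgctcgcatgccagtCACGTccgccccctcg
Riox2, chr16:59471525-59471774, plus strand: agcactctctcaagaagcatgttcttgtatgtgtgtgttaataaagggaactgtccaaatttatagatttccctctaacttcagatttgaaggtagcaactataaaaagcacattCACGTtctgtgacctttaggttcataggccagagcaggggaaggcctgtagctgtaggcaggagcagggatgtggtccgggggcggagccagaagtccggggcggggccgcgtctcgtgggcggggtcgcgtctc
P4ha1, chr10:59323046-59323295, plus strand: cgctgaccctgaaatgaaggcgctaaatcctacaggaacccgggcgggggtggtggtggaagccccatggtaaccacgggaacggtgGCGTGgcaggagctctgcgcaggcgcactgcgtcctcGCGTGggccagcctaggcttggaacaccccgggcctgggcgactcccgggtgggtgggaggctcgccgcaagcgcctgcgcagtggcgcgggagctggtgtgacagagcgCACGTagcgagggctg
Egln3, chr12:54203875-54204124, minus strand: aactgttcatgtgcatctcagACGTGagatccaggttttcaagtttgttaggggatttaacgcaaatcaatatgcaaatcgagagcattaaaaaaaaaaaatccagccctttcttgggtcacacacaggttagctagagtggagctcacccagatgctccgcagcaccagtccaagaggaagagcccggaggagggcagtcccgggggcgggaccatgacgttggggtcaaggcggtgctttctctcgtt
Kdm5b, chr1:134559928-134560177, plus strand: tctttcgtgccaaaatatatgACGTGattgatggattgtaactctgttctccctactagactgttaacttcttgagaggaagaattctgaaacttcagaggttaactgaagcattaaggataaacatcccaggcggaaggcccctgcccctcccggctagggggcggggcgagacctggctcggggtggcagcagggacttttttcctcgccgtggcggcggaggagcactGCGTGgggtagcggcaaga
Egln1, chr8:124949255-124949504, minus strand: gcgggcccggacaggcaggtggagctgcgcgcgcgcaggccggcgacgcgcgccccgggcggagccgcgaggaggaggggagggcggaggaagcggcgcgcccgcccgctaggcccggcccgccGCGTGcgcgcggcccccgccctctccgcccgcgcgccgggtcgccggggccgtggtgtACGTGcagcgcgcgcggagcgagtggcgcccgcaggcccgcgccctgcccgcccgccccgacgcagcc

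All of these 6 windows hold at least 1 core, P4ha1 with 3 and Kdm5b and Egln1 with 2 each. A core was found in 38.6% of all 32851 RefSeq windows and in 30 of the 52 windows (57.7%) of the 42 members that have one. The windows differ widely in base composition, from 50.8% G and C before Egln3 to 86.0% before Egln1, and both core forms contain CG. The NF-kB consensus had no match in the 6 windows, 1 match among the 52 member windows and a match in 3.9% of all windows. These are matches of letters and were not tested against the fold changes.

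The TET enzymes oxidise 5-methylcytosine in DNA, and LPS moved the 2 expressed members in opposite directions. Tet2 stood at 41.2, 32.7 and 31.9 CPM in Veh_N, at 177, 164 and 221 CPM in Veh_LPS and at 138, 148 and 130 CPM in D2HG_LPS. It rose after LPS by a log2 fold change of 2.41 ± 0.13 (edgeR adjusted p = 2.6e-09), with every LPS library far above every vehicle library. Tet3 went from 132, 120 and 101 CPM in Veh_N to 61.6, 57.7 and 81.1 CPM in Veh_LPS, and its D2HG_LPS values were 65.3, 60.9 and 55.4 CPM. It fell after LPS, with a log2 fold change of -0.82 ± 0.13 (edgeR adjusted p = 0.00011) and no overlap between Veh_N and Veh_LPS. Tet1 was nearly absent, at 0.552, 0.0593 and 0.47 CPM in Veh_N, 0, 0.106 and 0.0875 CPM in Veh_LPS and 0.0975, 0 and 0.0987 CPM in D2HG_LPS. Per kilobase of transcript, Tet3 was above Tet2 in Veh_N (10.8 against 3.91 CPM per kilobase) and Tet2 above Tet3 in Veh_LPS (20.8 against 6.13).

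**Figure D2:**
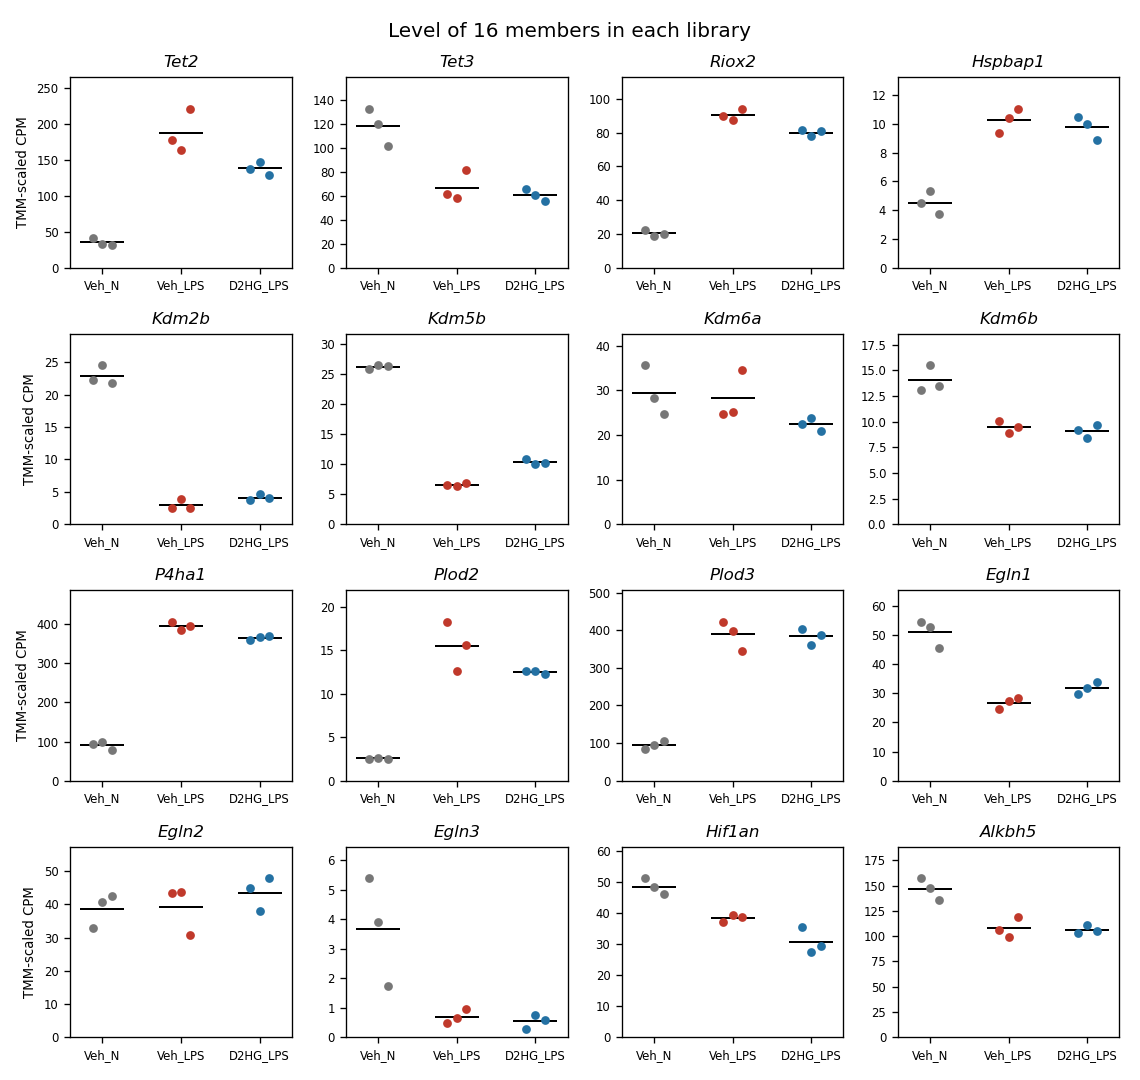
TMM-scaled CPM (y axes, each starting at 0) of 16 members in each library (points, in the order of the replicate numbers) with the group mean (line), for Veh_N (grey), Veh_LPS (red) and D2HG_LPS (blue). Tet2, Riox2, P4ha1, Plod2 and Plod3 sit higher in all 6 LPS-treated libraries than in Veh_N, and Kdm2b, Kdm5b, Egln1 and Egln3 lower.

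Among the H3K36 demethylases, Kdm2b, a CpG island-binding component of a Polycomb complex, had the largest fall of all members. Its level was 22.3, 24.5 and 21.8 CPM in Veh_N, 2.47, 3.82 and 2.54 CPM in Veh_LPS and 3.71, 4.61 and 4.05 CPM in D2HG_LPS. The log2 fold change after LPS was -2.97 ± 0.17 (edgeR adjusted p = 3.9e-09) with no overlap, and its LPS libraries were all far below its vehicle libraries. Its paralog Kdm2a stayed near 117 CPM in both groups (log2 fold change 0.01 ± 0.10), and Kdm8, whose histone activity is disputed, was low throughout (-0.12 ± 0.22). Neither was called, although Kdm2a was called lower with upper-quartile scaling and both were called lower with library totals alone.

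The H3K9 demethylases split, with 3 of 9 higher, 5 lower and Kdm7a not called (0.44 ± 0.21). Kdm7a was called higher in 4 alternatives, with RLE scaling, with DESeq2, without Veh_LPS replicate 2 and without Veh_N replicate 1. Kdm4a rose by a log2 fold change of 0.94 ± 0.08 in its listed transcript, which had 966, 1250 and 826 raw counts in Veh_N. In Veh_LPS that transcript had 1265, 1227 and 1594. A second Kdm4a transcript had 611, 701 and 452 raw counts in Veh_N and 535, 452 and 681 in Veh_LPS. The 2 transcripts thus differ in their change, and the second was not tested by itself. Kdm3b (0.63 ± 0.09) and Phf8 (0.44 ± 0.12), an X-linked reader of H3K4 trimethylation, also rose, although both turned negative with library totals alone and the Phf8 call was lost with upper-quartile scaling too. Within the KDM3 family Kdm3a (-0.75 ± 0.13) and Jmjd1c (-0.63 ± 0.16) fell while Kdm3b rose, and within the KDM4 family Kdm4b (-0.72 ± 0.16) and Kdm4c (-0.27 ± 0.10) fell while Kdm4a rose. Phf2 also fell (-0.64 ± 0.10). The Kdm4c call was lost in 9 of the 17 alternative settings.

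The KDM5 enzymes remove methyl groups from H3K4, a mark of active promoters, and with TMM Kdm5b fell while its paralogs rose. It stood at 25.8, 26.4 and 26.4 CPM in Veh_N, at 6.52, 6.37 and 6.91 CPM in Veh_LPS and at 10.9, 9.99 and 10.2 CPM in D2HG_LPS. These are 3 groups with no overlap, and the log2 fold change after LPS was -1.99 ± 0.11 (edgeR adjusted p = 3.3e-09). Kdm5c rose by 0.79 ± 0.08 and Kdm5a by 0.43 ± 0.09, although the Kdm5a call was lost with upper-quartile scaling. With library totals alone Kdm5a was called lower, like Kdm5b, and the Kdm5c call was lost. On the per-length scale Kdm5c was the highest of the 3 in each group, at 12.8, 22.1 and 19.0 CPM per kilobase in Veh_N, Veh_LPS and D2HG_LPS.

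The H3K27 demethylases oppose Polycomb silencing, and Kdm6b is known as a gene that LPS induces early in macrophages. At 24 h it was lower than in vehicle cells, at 13.1, 15.5 and 13.5 CPM in Veh_N, 10.1, 8.91 and 9.45 CPM in Veh_LPS and 9.17, 8.45 and 9.67 CPM in D2HG_LPS. The log2 fold change was -0.57 ± 0.12 (edgeR adjusted p = 0.0012) with no overlap. Kdm6a, its X-linked paralog, was at 35.6, 28.2 and 24.6 CPM in Veh_N, 24.8, 25.2 and 34.7 CPM in Veh_LPS and 22.4, 23.9 and 20.8 CPM in D2HG_LPS. Veh_N and Veh_LPS overlapped and the gene was not called (-0.06 ± 0.16), although it was called lower with upper-quartile scaling and with library totals alone.

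The group of JmjC hydroxylases of proteins, some of which act on ribosomal or splicing proteins, had 4 of 6 members called higher and 2 lower. It includes Tyw5, which acts on tRNA. Among all tested genes 35.0% were higher and 38.9% lower, and 6 members are few to compare with that. Riox2, which hydroxylates the ribosomal protein RPL27A, was at 22.4, 19.0 and 19.9 CPM in Veh_N, 89.9, 87.7 and 94.1 CPM in Veh_LPS and 81.4, 77.8 and 80.8 CPM in D2HG_LPS. Its log2 fold change after LPS was 2.15 ± 0.09 (edgeR adjusted p = 1.6e-10), and the spread within each group was small beside it. Riox1, which hydroxylates RPL8, went the other way, from 9.58, 10.7 and 12.1 CPM in Veh_N to 7.31, 5.83 and 5.34 CPM in Veh_LPS, with 6.92, 6.57 and 4.74 CPM in D2HG_LPS. Riox1 fell without overlap (-0.81 ± 0.18, edgeR adjusted p = 0.0012).

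Hspbap1, a cupin-fold protein that binds a small heat shock protein, was at 4.48, 5.34 and 3.76 CPM in Veh_N, 9.38, 10.4 and 11.0 CPM in Veh_LPS and 10.4, 9.99 and 8.88 CPM in D2HG_LPS. It rose by 1.17 ± 0.16 (edgeR adjusted p = 2.2e-05), and Tyw5, a tRNA hydroxylase grouped here for its JmjC fold, rose by the same amount (1.17 ± 0.16). Jmjd6 was higher by 0.42 ± 0.13, but the call was lost with upper-quartile scaling and the value turned negative with library totals alone, and Jmjd4, which hydroxylates the translation release factor eRF1, fell (-0.59 ± 0.16).

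The HIF hydroxylases fell or were not called: 3 of 4 were lower and none higher, and with library totals alone all 4 were lower. Of all tested genes 38.9% were lower with TMM and 65.3% with library totals alone, and 4 genes are too few to set a share against these. Egln1 (PHD2), the main oxygen-dependent brake on HIF1, was at 54.4, 52.5 and 45.5 CPM in Veh_N, 24.5, 27.4 and 28.2 CPM in Veh_LPS and 29.6, 31.8 and 33.8 CPM in D2HG_LPS. It fell without overlap (-0.93 ± 0.10, edgeR adjusted p = 2.9e-06). Egln3 (PHD3) was low and variable in vehicle cells, at 5.38, 3.91 and 1.72 CPM, and lower still at 0.494, 0.637 and 0.963 CPM in Veh_LPS and 0.293, 0.768 and 0.592 CPM in D2HG_LPS. Its fall (-2.37 ± 0.45, edgeR adjusted p = 0.00041) rests on 22 counts in all over the 3 Veh_LPS libraries.

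Egln2 (PHD1) was at 33.0, 40.6 and 42.4 CPM in Veh_N, 43.5, 43.7 and 30.8 CPM in Veh_LPS and 44.8, 37.9 and 47.8 CPM in D2HG_LPS. The groups overlapped, and the log2 fold change of 0.02 ± 0.15 turned negative with upper-quartile scaling and was called lower with library totals alone (-0.65). Hif1an (FIH), which hydroxylates an asparagine of HIF and so blocks its coactivator, was at 51.2, 48.3 and 46.1 CPM in Veh_N, 37.0, 39.5 and 38.8 CPM in Veh_LPS and 35.5, 27.5 and 29.4 CPM in D2HG_LPS. It fell modestly (-0.34 ± 0.10, edgeR adjusted p = 0.0091) without overlap.

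The substrates and partners of these enzymes moved both ways, and 3 of 5 tested were called higher and 1 lower. Hif1a, the main HIF subunit in macrophages, rose from a mean of 77.7 to 206 CPM (log2 fold change 1.40 ± 0.14). Vhl, the ubiquitin ligase subunit that recognises hydroxylated HIF, rose by 0.46 ± 0.09, a call lost with upper-quartile scaling and a value that turned negative with library totals alone, and Epas1 (HIF2 alpha) fell (-1.09 ± 0.16). Arnt2 was called higher (1.65 ± 0.55), from a mean of 0.387 to 1.24 CPM, and the common partner Arnt was not called (0.01 ± 0.08).

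The collagen and endoplasmic reticulum hydroxylases held 3 of the 5 largest rises, and 4 of 6 tested members were higher and 1 lower. The shares of all tested genes were 35.0% and 38.9%, and 6 genes are few to compare with them. P4ha1, the catalytic subunit of collagen prolyl 4-hydroxylase, was at 94.4, 98.4 and 79.2 CPM in Veh_N, 405, 384 and 395 CPM in Veh_LPS and 358, 368 and 369 CPM in D2HG_LPS. Its log2 fold change was 2.12 ± 0.09 (edgeR adjusted p = 1.8e-10), and its LPS libraries lay close together. P4ha2 was not called (0.14 ± 0.16), although it was called lower with library totals alone.

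Plod2, which hydroxylates lysines of the collagen telopeptides, was at 2.55, 2.67 and 2.51 CPM in Veh_N, 18.3, 12.6 and 15.7 CPM in Veh_LPS and 12.6, 12.6 and 12.3 CPM in D2HG_LPS. It rose most of all members (2.59 ± 0.16, edgeR adjusted p = 1.3e-08), from a low base and with no overlap. Plod3, which also transfers sugars to hydroxylysine, was at 84.7, 95.7 and 105 CPM in Veh_N, 422, 399 and 345 CPM in Veh_LPS and 402, 362 and 388 CPM in D2HG_LPS. It rose by 2.03 ± 0.10 (edgeR adjusted p = 1.2e-09). Plod1 fell instead (-0.55 ± 0.09), and per kilobase the order of the paralogs changed from Plod1 above Plod3 in Veh_N (72.3 against 29.0 CPM per kilobase) to Plod3 above Plod1 in Veh_LPS (119 against 49.5). Asph was called higher (0.54 ± 0.15), but the call was lost with upper-quartile scaling and the value turned negative with library totals alone. The Asph gene also makes proteins without the catalytic domain. The deposited counts hold 11 Asph transcripts, which share reads. Those without this domain were not told apart here or tested by themselves.

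Of the partners of the collagen hydroxylases 2 of 4 tested were called higher and 2 lower. P4hb, the other subunit of prolyl 4-hydroxylase and a disulfide isomerase, rose by 0.37 ± 0.07, and Ppib, a proline isomerase of the same compartment, by 0.38 ± 0.10, although both calls were lost with upper-quartile scaling and both genes were called lower with library totals alone. Colgalt1, a collagen galactosyltransferase, fell (-0.53 ± 0.07), as did Crtap (-0.30 ± 0.10). Serpinh1, the collagen chaperone, was at or near 0 in all groups (mean at most 0.0583 CPM). Stromal markers were also nearly absent: Col1a1, Col1a2, Col3a1, Dcn, Lum and Pdgfra summed to at most 1.75 CPM in any library, and Lum and Pdgfra were at 0 in all 9.

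**Figure D3:**
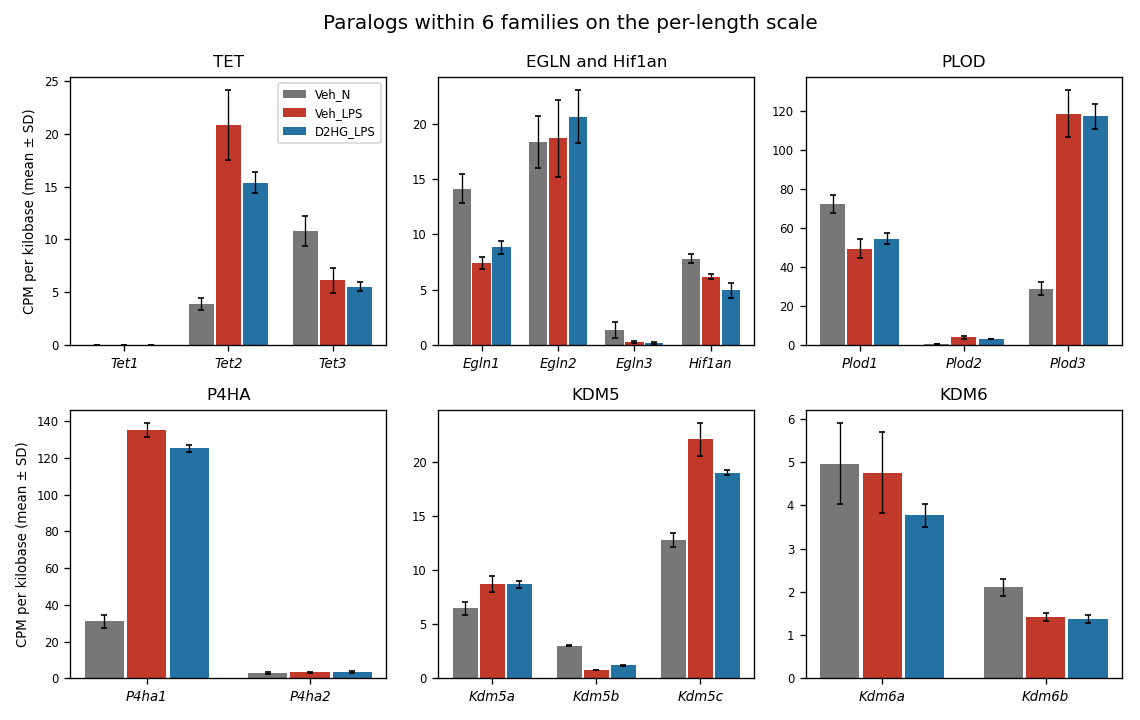
Level per kilobase of transcript (y axes, mean of 3 libraries with SD bars) for the paralogs of 6 families in Veh_N (grey), Veh_LPS (red) and D2HG_LPS (blue). Tet2 overtakes Tet3 (20.8 against 6.13 CPM per kilobase) and Plod3 overtakes Plod1 (119 against 49.5) in Veh_LPS, and P4ha1 reaches 135.

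On that per-length scale, which 50 members have, the highest members in Veh_N were Plod1 (72.3 CPM per kilobase), Phyh (32.3), P4ha1 (31.1), Plod3 (29.0) and Alkbh5 (25.7). In Veh_LPS they were P4ha1 (135), Plod3 (119), Phyh (63.5), Plod1 (49.5) and Riox2 (41.9). Phyh, a peroxisomal enzyme that starts the breakdown of phytanic acid, rose by a log2 fold change of 0.97 ± 0.08. Phyh, P4ha1 and Plod3 differed in Veh_N by no more than the spread between their libraries, so their order there is not resolved.

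The genes grouped as nucleic acid demethylases mostly fell or were not called, with 1 of 9 higher and 4 lower with TMM. Upper-quartile scaling gave 1 and 6, and library totals alone 0 and 8. Of all tested genes 38.9%, 51.3% and 65.3% were lower in these settings. Alkbh5, which removes N6-methyladenosine from messenger RNA, was at 157, 148 and 136 CPM in Veh_N, 106, 99.3 and 119 CPM in Veh_LPS and 103, 111 and 105 CPM in D2HG_LPS. It fell without overlap (-0.44 ± 0.09, edgeR adjusted p = 0.00053). Fto, which acts on the same mark and on its cap-adjacent form, was at 50.5, 56.3 and 52.0 CPM in Veh_N, 43.6, 43.0 and 43.1 CPM in Veh_LPS and 41.1, 42.6 and 41.7 CPM in D2HG_LPS. Its fall was small but outside the spread (-0.29 ± 0.08, edgeR adjusted p = 0.0046).

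Alkbh2, a DNA alkylation repair enzyme, fell from a mean of 2.14 to 0.654 CPM (-1.71 ± 0.33), while Alkbh3, which repairs single-stranded DNA and RNA, rose (0.77 ± 0.12), a call that was lost with library totals alone. The groups of Alkbh7, a mitochondrial member, overlapped, and its call (-0.71 ± 0.25) was lost in 4 alternative settings. Alkbh1, Alkbh4, Alkbh6 and the tRNA-modifying Alkbh8 were not called, with fold changes from -0.25 ± 0.23 (Alkbh8) to 0.09 ± 0.19 (Alkbh6). Alkbh1 and Alkbh8 were called lower with upper-quartile scaling, and all 4 with library totals alone.

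Of the enzymes that write N6-methyladenosine, 4 of 6 were called higher and none lower with TMM. Upper-quartile scaling gave 2 higher and none lower, and library totals alone 1 higher and 3 lower. Across all tested genes 35.0%, 25.4% and 18.2% were higher in these settings. The TMM values were 1.07 ± 0.10 for Wtap, 0.66 ± 0.12 for Rbm15, 0.38 ± 0.08 for Zc3h13 and 0.55 ± 0.14 for Virma. Of these Wtap kept its call with library totals alone, where the other 3 turned negative. The catalytic pair Mettl3 (0.14 ± 0.11) and Mettl14 (0.04 ± 0.13) was not called.

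The oxygenases of other substrates had 1 of 4 tested members higher, Phyh, and 2 lower. Ogfod1, which hydroxylates a protein of the small ribosomal subunit, fell (-0.51 ± 0.14), and so did Ogfod2 (-0.78 ± 0.19), while Ogfod3 was not called (-0.05 ± 0.19) except with library totals alone, where it was lower. P4htm, a transmembrane prolyl hydroxylase of the endoplasmic reticulum, had 19 counts in all in Veh_N, 6 in Veh_LPS and 8 in D2HG_LPS. Tmlhe, the mitochondrial enzyme that starts carnitine synthesis, gave no count.

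The methyltransferases that lay the marks removed by TET and JmjC enzymes had 5 of 21 members higher and 8 lower with TMM. Upper-quartile scaling gave 2 and 13, and library totals alone 1 and 16. Lower were thus 38.1%, 61.9% and 76.2% of the list in these settings, against 38.9%, 51.3% and 65.3% of all tested genes. Dnmt3a (-1.48 ± 0.08) and Dnmt1 (-1.53 ± 0.12), the de novo and maintenance DNA methyltransferases, fell. Setdb1 (-0.99 ± 0.09), a writer of H3K9 methylation, also fell, and Nsd3, a writer of H3K36 methylation, rose (1.85 ± 0.12). Kdm1a, the flavin-dependent demethylase LSD1 that needs no 2-oxoglutarate, rose by 0.73 ± 0.08, a call that was lost with library totals alone. Over all partner lists 16 of 46 tested genes were higher and 15 lower with TMM, and 8 and 23 with upper-quartile scaling. The latter are 17.4% and 50.0%, against 25.4% and 51.3% of all tested genes with that scaling. Among 15 further genes of the dioxygenase superfamily 8 were tested, with 1 higher and 4 lower. Jarid2, a Polycomb cofactor that has lost the catalytic residues, rose (2.00 ± 0.08), and Jmjd7 (-3.47 ± 0.45), P3h3 (-1.40 ± 0.17) and Kdm5d (-0.94 ± 0.13) fell. The Jmjd7 value rests on 129 counts in all in Veh_N and 8 in Veh_LPS, so its size is imprecise.

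The comparison of D2HG_LPS with Veh_LPS asks what the ester changed in LPS-treated cells, and it shares the Veh_LPS libraries with the comparison above. Of the 48 tested members 1 was called higher, Kdm5b, and 0 were called lower, where 1.15% and 0.955% of all tested genes were, so the members' count lies near the background. Without adjustment, 5 members were higher and 9 lower at p below 0.05, which is 10.4% and 18.8% of those tested against 8.05% and 7.71% of all tested genes. These counts depended on scaling and on single libraries, and the difference in shares was not tested. They were 6 and 6 with upper-quartile scaling, 8 and 3 with library totals alone and 4 and 10 with RLE scaling. Leaving out Veh_LPS replicate 3 gave 5 and 5, and leaving out Veh_N replicate 1 gave 6 and 11. DESeq2 called 1 member higher and 2 lower, and 1.11% and 2.08% of all genes. The median log2 fold change of the members was -0.05 and that of all tested genes 0.01. The log2 fold changes of the 48 tested members lay between -0.44 (Tet2) and 0.65 (Kdm5b), so no estimate reached 2-fold. Those of Egln3 (-0.33 ± 0.65) and Alkbh2 (0.48 ± 0.40), which had few counts, are too imprecise to exclude a change of that size.

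With the ester Kdm5b was higher by a log2 fold change of 0.65 ± 0.12 (edgeR adjusted p = 0.015), a 1.57-fold difference. Its 3 D2HG_LPS libraries (9.99 to 10.9 CPM) lay above all Veh_LPS libraries (6.37 to 6.91 CPM) and far below all Veh_N libraries (25.8 to 26.4 CPM). The direction held in all 17 alternatives (0.61 to 0.71), but the call was lost with the replicate number as a block (edgeR adjusted p = 0.065) and without any one D2HG_LPS library or Veh_LPS replicate 1 or 2 (adjusted p 0.0565 to 0.0898). Its paralogs Kdm5a (0.00 ± 0.09) and Kdm5c (-0.22 ± 0.08) were not called.

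Tet2 had the lowest ester value (-0.44 ± 0.12, edgeR adjusted p = 0.098). Its D2HG_LPS libraries (130 to 148 CPM) lay below its Veh_LPS libraries (164 to 221 CPM) and above Veh_N (31.9 to 41.2 CPM). It was not called, but DESeq2 (adjusted p = 0.022), the fit without a filter on low counts, the fit of only the 2 groups and the fit without Veh_N replicate 1 called it lower. Without Veh_LPS replicate 3, its highest library, the value was -0.30. Phf8 came next (-0.42 ± 0.13, edgeR adjusted p = 0.12), at 61.4, 62.8 and 68.5 CPM in Veh_LPS and 47.9, 49.5 and 46.3 CPM in D2HG_LPS. DESeq2, the fit of only the 2 groups and the fits without Veh_N replicate 1 or 3 called Phf8 lower.

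The other members named above had ester values that did not pass the test. Among those changed most by LPS these were -0.31 ± 0.14 for Plod2, -0.18 ± 0.08 for Riox2, -0.11 ± 0.08 for P4ha1, -0.02 ± 0.10 for Plod3, -0.07 ± 0.15 for Hspbap1 and 0.50 ± 0.20 for Kdm2b. Among the HIF hydroxylases they were 0.25 ± 0.10 for Egln1, 0.15 ± 0.15 for Egln2, -0.33 ± 0.65 for Egln3 and -0.32 ± 0.10 for Hif1an. Egln3, with 22 counts in Veh_LPS and 18 in D2HG_LPS, has too few counts for its difference to be resolved at this depth.

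The remaining chromatin and RNA enzymes were as close. Kdm6a stood at -0.34 ± 0.16, Kdm6b at -0.06 ± 0.13, Tet3 at -0.14 ± 0.14, Riox1 at -0.01 ± 0.19, Fto at -0.05 ± 0.08 and Alkbh5 at -0.02 ± 0.09. Ogfod2, an oxygenase of unknown substrate, had the next highest value after Kdm5b (0.59 ± 0.20) and no overlap between its groups, and it was not called (edgeR adjusted p = 0.16). With edgeR none of the 46 tested partner genes was called with the ester, although 4 were higher and 4 lower (8.7% each) where p under 0.05 was taken without adjustment, near the 8.05% and 7.71% of all tested genes. DESeq2 called Kdm1a higher and Dnmt3a and Wtap lower, and Kdm1a (0.33 ± 0.08, edgeR adjusted p = 0.062) was also called in 5 other settings.

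Libraries differed in a way that followed transcript length. Among the 18 tested members with transcripts of at least 5000 bases, Veh_LPS replicate 3 was the highest of its group for 15 and Veh_N replicate 1 for 13, and Veh_N replicate 3 was the lowest for 16. Among the 30 shorter members, Veh_LPS replicate 3 was highest for 9 and Veh_N replicate 3 lowest for 13. Tet2, Tet3 and Kdm6a follow that pattern in Veh_LPS. Its part in their fold changes was not tested.

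**Figure D4:**
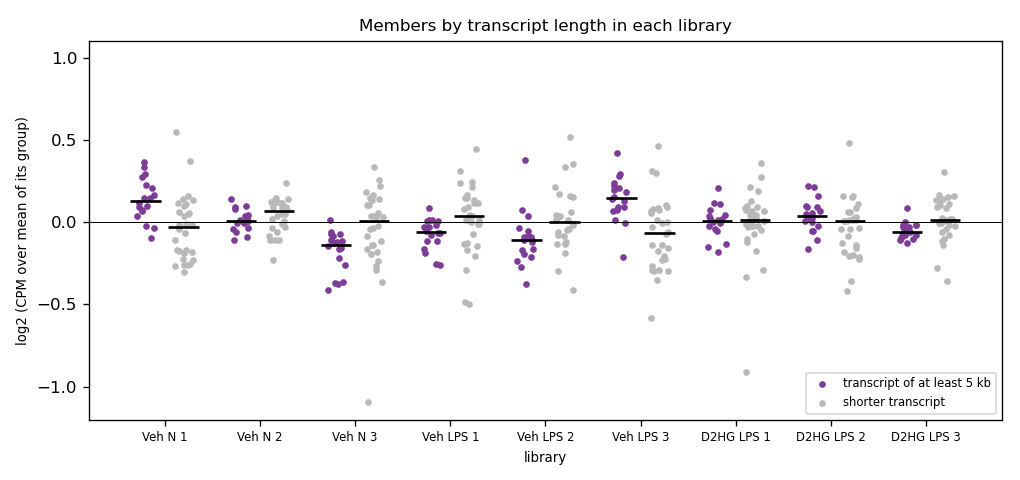
Log2 ratio of each tested member's CPM to the mean of its group (y axis) in each of the 9 libraries (x axis), for transcripts of at least 5 kb (purple, 18 members) and shorter ones (grey, 30 members), with medians (lines). The median of the long transcripts is 0.15 in Veh_LPS replicate 3 and -0.14 in Veh_N replicate 3, against -0.06 and 0.00 for the shorter ones.

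The cells carried the markers of macrophages. The 7 macrophage markers summed to 13049 to 15522 CPM in Veh_N, 11122 to 11623 in Veh_LPS and 11298 to 11857 in D2HG_LPS, a sum led by Lyz2. After LPS 3 of the 7 were called higher and 3 lower, with Fcgr1 (2.90 ± 0.09) and Mertk (0.92 ± 0.09) up and Csf1r (-1.42 ± 0.07) and Lyz2 (-0.68 ± 0.10) down. The 6 neutrophil markers summed to 18.9 to 27.2 CPM in Veh_N, 48.6 to 60.9 in Veh_LPS and 44.6 to 58.4 in D2HG_LPS, mostly S100a8 and S100a9, which macrophages also express. The 4 lymphoid markers summed to at most 1.88 CPM in any library, with Cd3e at or near 0. The 3 dendritic markers summed to 0.593 to 1.41 CPM in Veh_N, 5.52 to 6.74 in Veh_LPS and 6.34 to 8.49 in D2HG_LPS. Of these Xcr1 rose after LPS from a mean of 0.302 to 5.40 CPM (log2 fold change 4.15 ± 0.30), and Flt3 and Zbtb46 stayed too low to test. The part of these cell types in the members' changes was not tested. In bulk RNA fewer cells and less RNA per cell cannot be told apart. Exons of Asph, Riox2, Tyw5, Riox1, Kdm2b, Plod2, Alkbh2, Plod3, Ogfod3, Kdm7a, Jmjd6, Kdm6b, Fto, Alkbh3, Kdm3b, Alkbh1, Egln2 and Phf2 overlap those of a gene on the other strand in GENCODE vM21, by 2302 bases in Asph and down to 8 in Phf2. The sources used here do not give whether counting used the strand, and reads of the overlapping partner cannot be told apart from theirs. On the same strand, exons of Alkbh3 (172 bases), Kdm2b (124), Alkbh6 (56) and Plod3 (9) overlap those of another gene. Counting by strand would not separate these.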

How the data were processed

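Libraries were strand-specific (KAPA mRNA HyperPrep) and came from RNeasy-purified RNA, per the labels' protocols. Per the submitters' processing notes, the tools were STAR 2.5.2b and DESeq2 and the builds mm10 and mm9, with no role given for any of them. The sources used here give neither the counting program nor its annotation or strand setting. The authors deposited raw read counts for 35745 RefSeq transcripts in 9 libraries. Of these transcripts 35435 were matched to symbols through the RefSeq gene table (GRCm38.p6) and 193 through GENCODE vM21. The other 117 held 0.676% to 2.37% of a library's counts and were left out of all totals and tests. The transcript with most counts stood for each gene, since isoforms share reads. This left 9451258 to 13759935 counts per library, a depth that leaves low genes imprecise, and limits from a count of 0 cover counting error only.

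Counts were filtered by filterByExpr (minimum count 10), scaled by TMM and tested with edgeR 4.0.16 (limma 3.58.1, R 4.3.3): 1 robust glmQLFit of the 9 libraries on group alone, then glmQLFTest, two-sided, with Benjamini-Hochberg adjustment over all 11622 tested genes. SE is the size of the log2 fold change divided by root F. TMM factors were 1.338 to 1.351 in Veh_N and 0.831 to 0.887 in the LPS groups. The common biological coefficient of variation was 0.105. No 2 replicates of a group were as alike as counting noise alone would make them (chi-square per degree of freedom 2.7 to 22.5). The alternatives were DESeq2 1.42.0, other scalings, no filter, summed isoforms, 2 groups only, the replicate number as a block and each library left out. The scripts were tested on simulated data.

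The members and lists were chosen with earlier results of these data known. Every member may be named. Values in every library are given for members called with the ester, for the 6 rises and 6 falls of largest fold change after LPS whose mean log2 CPM reached 1, and for 11 members of the TET, KDM6, HIF and N6-methyladenosine families. From each partner list up to 4 genes of smallest p were named. Phf8 was given library values, and Arnt, Mettl3, Mettl14 and Serpinh1 were named, after their values were seen. Promoter windows are from RefSeq and were searched over the 250 bases before the start site. Transcript lengths were taken from GENCODE vM21 for 50 members. Where the listed transcript had no GENCODE partner, another transcript of the gene gave the length. Where several GENCODE transcripts were paired with it, their median was used.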

Additional observations from a re-analysis of the deposited data

How the results depend on the processing

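With library totals alone 9 members were higher and 32 lower after LPS, and the partner genes had 4 higher and 32 lower calls, against 8 and 23 with upper-quartile scaling. With the ester, members called higher went from 1 to 0 with the replicate block and to between 0 and 1 when single libraries were left out. Members called lower were 2 with DESeq2, 1 without the filter, 2 in the fit of 2 groups and between 0 and 2 when single libraries were left out. Partner genes called higher with the ester numbered 1 with upper-quartile scaling, library totals alone, DESeq2 or 2 groups, and between 0 and 1 when single libraries were left out. DESeq2 called 2 lower. Whether the replicate numbers pair the samples is not known. Deviations of same-numbered libraries correlated from -0.456 to 0.191 and those of differently numbered libraries from -0.391 to 0.529. With 3 libraries a group these values cannot decide it. With the replicate block 53 genes were higher and 40 lower with the ester, against 134 and 111. The block also uses up degrees of freedom, so the smaller counts do not decide it either.

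Among all genes, library totals alone gave 2112 higher and 7589 lower after LPS and 212 and 73 with the ester. Lower calls with the ester were 336 with DESeq2 and 253 with 2 groups, and leaving out 1 library gave 35 to 230 higher and 29 to 271 lower. Values near 0 changed sign. After LPS, Egln2 was -0.30 with upper-quartile scaling and -0.65 with library totals, and ran from -0.08 to 0.18 over the left-out libraries, where Kdm6a ran from -0.23 to 0.10. With the ester, upper-quartile scaling gave 0.00 for Alkbh5 and 0.01 for Plod3 and Riox1. Library totals gave 0.04 for Alkbh5 and Plod3, 0.01 for Fto, 0.00 for Kdm6b and 0.05 for Riox1. Over the left-out libraries Alkbh5 ran from -0.08 to 0.05, Egln2 from 0.00 to 0.23, Plod3 from -0.10 to 0.05, Riox1 from -0.11 to 0.13 and Tet3 from -0.24 to 0.02. Egln3 gave no adjusted ester value with DESeq2 or in the fit of 2 groups. The causes were not tested.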
